A study of Rattus norvegicus with 6 samples.

Results

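Untreated Med14 S983A INS-1 cells were compared with untreated WT INS-1 cells by ATAC-seq, with 1 library of each genotype. The comparison takes in all 220487 merged peaks off the mitochondrial chromosome, of 220490 in the deposited table, and each of them has either a value or a 0 in both libraries. ATAC-seq reads where the Tn5 transposase can insert into DNA, so that a peak marks a stretch of accessible chromatin, most often a promoter or an enhancer. Mediator is the large coactivator complex that carries signals from enhancer-bound factors to RNA polymerase II, and Med14 is its scaffolding subunit, which joins the head, middle and tail modules. Its residue S983 is a serine phosphorylated by protein kinase A, the kinase that cAMP switches on, and in Med14 S983A an alanine takes its place. The question here is how accessible chromatin differed between the lines before any agonist.

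INS-1 is a rat insulinoma line that secretes insulin and serves as a model of the beta cell. The WT CON and Med14S983A CON libraries came from cells moved to serum-free medium with no agonist. The other 4 libraries of the study came from the same genotypes after 1 h with 10 nM Ex-4, an agonist of the GLP-1 receptor, or with 10 µM FSK, which activates adenylate cyclase. The mutant cells were made by CRISPR editing with a repair template and puromycin selection, and grown from sorted single cells. They are therefore clonal. The study's methods state that experiments were replicated with 2 mutant lines made independently, but do not say whether the deposited ATAC-seq libraries hold 1 line, the other or both, or whether the WT cells were cloned. Genotype and cell line cannot be told apart with these libraries. No p-value can be given for 1 library against 1, and every difference below describes these libraries. Beta cell markers were not checked, because an rn6 annotation was not used here and peaks carry no gene names.

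All values are FPKM, in which reads are scaled to peak length and to the reads inside the library's own peaks. A peak that a library's own list lacks is listed at 0 in that library, apart from between 116 and 141 peaks a library that have a value without a call. A 0 is no measurement of the absence of reads. Differences are given as log2(FPKM + 0.5) in Med14 S983A minus WT, on which the changes of weak peaks come out too small. The analysis kept 146906 peaks whose FPKM averaged 1 or more across all 6 libraries, so that a peak high in a single genotype can pass through that genotype alone. Recovered from the steps between low values, reads in peaks numbered 151500000 in WT CON and 134300000 in Med14S983A CON. A peak with a value in both libraries held a median of 593 reads in WT CON and 447 in Med14S983A CON, which gives counting errors of 4.11% and 4.73%. Counting intervals cover counting error alone, and the spread between cultures is unknown.

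More sites were weaker than stronger in the untreated mutant. Of the analysed peaks, 31570 (21.5%) were at least 2-fold lower in Med14S983A CON than in WT CON and 16536 (11.3%) were at least 2-fold higher. Most of these calls rest on a 0. A 0 in Med14S983A CON stands behind 62.5% of the losses, and a 0 in WT CON behind 70.5% of the gains. Both untreated libraries have a value at 97388 peaks, called shared peaks here. Among them 11829 (12.1%) were at least 2-fold lower and 4870 (5.0%) at least 2-fold higher in the mutant, and 82.9% lay within 2-fold. The difference had a median of 0.03 with quartiles of -0.46 and 0.31, and its lower tail was the longer one. At 5% and 95% of the peaks it was -1.63 and 1.00, and 2846 peaks were at least 4-fold lower against 791 at least 4-fold higher.

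This balance depends on the scaling. Higher peaks made up 34.4% of all changed peaks and 29.2% of the changed shared peaks. After quantile normalization of the untreated libraries over all analysed peaks, which hold more zeros in the mutant, those shares were 44.9% and 57.2%, with 10628 shared peaks higher and 7968 lower. That normalization moved the median of the shared peaks to 0.15. Relative to this median, 8200 shared peaks were higher and 9979 lower. When the quantiles were taken over the shared peaks alone, a setting added after the values were seen, 6631 were higher and 9558 lower.

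**Figure D1:**
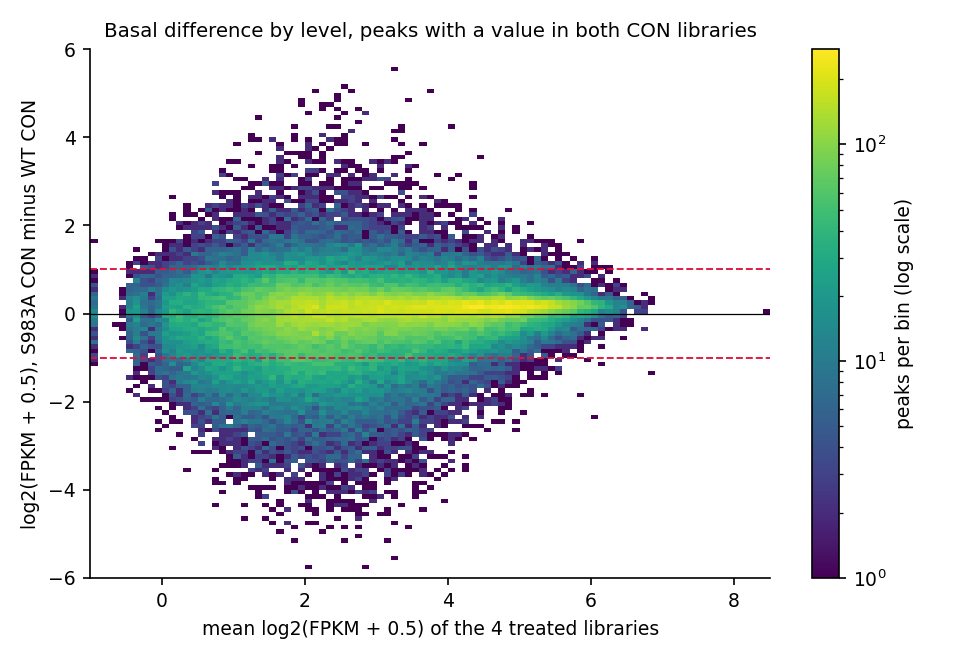
Each bin shows the number of peaks with a value in both untreated libraries, by their mean log2(FPKM + 0.5) in the 4 treated libraries on the x axis and by the difference of Med14 S983A minus WT in CON on the y axis. Dashed lines mark 2-fold, and the cloud narrows to the right, around a median of 0.14 in the strongest class of peaks, with more peaks below the lower line (11829) than above the upper one (4870).

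The difference in CON does not use the other 4 libraries, which entered the choice of shared peaks only through the filter on the mean, and they show whether it returned in other libraries of the same genotypes. Of the 4870 shared peaks higher in CON, 99.5% were also higher in Med14 S983A under Ex-4 and 97.2% under FSK, and the difference was at least 2-fold in 79.3% and 66.0% of this group. Over all shared peaks, 6.87% were at least 2-fold higher under Ex-4 and 5.35% under FSK. The median difference of the higher peaks was 1.32 in CON, 1.33 for Ex-4 and 1.18 for FSK. Of the 11829 lower peaks, 99.7% were lower again under Ex-4 and 98.8% under FSK, at least 2-fold in 81.8% and 84.2%, where 12.7% and 16.1% of all shared peaks were that much lower. Their medians were -1.49, -1.47 and -1.65. A 0 in a treated library entered these shares and medians as a value. Of the 4870 higher peaks 4236 were called in all 6 libraries, and of the 11829 lower peaks 9120 were. The repeat was more frequent for larger differences. Among the 661 peaks at least 8-fold lower in CON, 100% were at least 2-fold lower under Ex-4 and 99.8% under FSK, and of 11284 peaks between 0.5 and 1 lower on the log2 scale, 14.3% and 28.4% passed 2-fold. The treated libraries come from the same mutant and WT cells as far as the labels say, so this repeat does not separate the mutation from the clone. Without the filter, 4942 of 99157 shared peaks were higher and 11908 lower, and 78.6% and 65.4% of the former and 81.6% and 84.0% of the latter passed 2-fold again under Ex-4 and FSK.

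Calls divided the 146906 peaks into 4 classes. The 97388 peaks with a value in both untreated libraries had a median length of 546 bp, against 297 bp for the 19777 that had one in WT CON only and 226 bp for the 11686 that had one in Med14S983A CON only. The remaining 18055 peaks, 191 bp long in the median, had a value in neither and entered through treated libraries. Peaks of a single untreated library were weak. Their median was 3.75 FPKM in WT CON for the WT class and 3.6 FPKM in Med14S983A CON for the mutant class, while shared peaks had medians of 7.70 and 6.88 FPKM.

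The filter on the mean bears on how often a single-library peak was called again, because a weak peak with a 0 in 1 untreated library passes only where treated libraries list it too. Calls were therefore counted without the filter, a step added after the values were seen. Of all 32218 peaks with a value in WT CON and a 0 in Med14S983A CON, 72.9% were called in WT Ex-4 and 68.2% in WT FSK, and 21.3% and 20.7% in the corresponding mutant libraries. Of the 19982 peaks of the other direction, 66.3% and 61.0% were called in the Ex-4 and FSK libraries of the mutant, and 18.7% and 33.1% in those of WT. WT FSK is the deepest library, with 251100000 reads in peaks, and the part of depth in its larger share was not tested. The filter raised these shares. Among the peaks that passed it, 92.1% and 91.3% of the WT CON class were called in the treated WT libraries, and 28.5% and 28.9% in the treated mutant libraries. In the Med14S983A CON class, 89.2% and 85.9% were called in the treated mutant libraries, and 26.3% and 49.0% in the treated WT libraries. Of the 146906 analysed peaks, calls in all 3 WT and in no mutant library marked 10275, with a median of 4.19 FPKM in WT CON. They are 52.0% of the 19777 peaks of the WT CON class. Calls in all 3 mutant and in no WT library marked 4166, with a median of 4.20 FPKM in Med14S983A CON. They are 35.6% of the 11686 peaks of the mutant class. In each treatment the WT library had more calls, with 131253 against 119021 in CON, and such peaks can pass the filter through 1 genotype alone. In the WT set 1532 peaks reached 10 FPKM and 30 reached 40 FPKM, and in the mutant set 671 and 10.

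Peaks of at least 10 FPKM in their own library all pass the filter. At that level the WT class held 2385 peaks, of which 92.8% were called in WT Ex-4 and 89.7% in WT FSK, and 75.7% were called in neither treated mutant library. The mutant class held 1445, of which 89.4% and 83.7% were called in the treated mutant libraries, and 61.8% in neither treated WT library. Below 2 FPKM, without the filter, 54.3% of 9923 WT peaks were called in WT Ex-4 and 62.9% were called in neither treated mutant library. In the mutant class of that level, 52.5% of 6414 peaks were called in the Ex-4 library of the mutant and 59.7% in neither treated WT library. Weak peaks were thus called again less often than strong ones within their own genotype, in these libraries.

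The 5 strongest Med14S983A CON peaks that no WT library called had between 47.5 and 60.7 FPKM. On chromosome 16 of rn6 from 71585960 to 71586356, the mutant libraries held 57.1 (CON), 53.8 (Ex-4) and 46.0 (FSK) FPKM. On chromosome 17 from 9576155 to 9576861 the values were 49.1, 45.7 and 40.7 FPKM, and on chromosome 12 from 17283050 to 17283791 they were 47.5, 50.4 and 47.9 FPKM. The counting interval of the last peak in CON was 46.2 to 48.9 FPKM (95%, exact Poisson). One of the 5 strongest has a 0 in the FSK library of the mutant, which does not show that the site was lost. It spans 102 bp of chromosome 20 from 56193528 to 56193630, reached 60.7 FPKM in CON and 54.0 under Ex-4, and is at 0 in the FSK list.

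The 5 strongest WT CON peaks that no mutant library listed were each between 626 and 898 bp long and had between 58.1 and 66.3 FPKM. On chromosome 1 from 64434760 to 64435435, the WT libraries held 63.8 (CON), 62.6 (Ex-4) and 54.1 (FSK) FPKM. On chromosome 5 from 62596574 to 62597275 they had 62.9, 52.5 and 31.4 FPKM, and on chromosome 12 from 13294284 to 13294959 they had 61.3, 53.1 and 45.3 FPKM. On chromosome 1 from 260936229 to 260937127 they had 58.1, 53.7 and 39.4 FPKM. All of these were listed at 0 in the 3 Med14 S983A libraries, so no fold is given. Some of them follow rows of successive peaks with a value in WT CON and a 0 in Med14S983A CON. On chromosome 1 a row of 15 ends at 64426620, and on chromosome 5 a row of 7 ends at 62565645.

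Among the 62205 shared peaks that averaged 5 FPKM or more in the untreated libraries, the largest basal gain and the one ranked 5 were neighbours on chromosome 6. The first, from 132195309 to 132196110, had 0.379 FPKM in WT CON (0.278 to 0.506), 0.841 in WT Ex-4 and 1.52 in WT FSK, against 40.01 (38.8 to 41.2), 45.6 and 63.6 in Med14 S983A. The second, from 132196672 to 132197384, had 1.56, 2.10 and 2.13 FPKM in WT and 65.4, 67.6 and 73.9 in the mutant. Their differences in CON were 5.53 and 5.002, and the genotypes were far apart at both peaks in every treatment.

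The other leading gains lie on chromosomes 7, 9, 16 and 17. On chromosome 9 from 10768521 to 10769865, the WT values were 0.462 (CON), 0.501 (Ex-4) and 0.750 FPKM (FSK), against 34.6, 32.4 and 31.0 in Med14 S983A. On chromosome 17 from 4793920 to 4794548 the values were 0.725, 0.742 and 0.590 in WT and 39.1, 35.8 and 32.9 in the mutant. This second site lies in a stretch of chromosome 17 whose shared peaks had a median difference of -0.52. Another of the 8, on chromosome 9 from 119261603 to 119262353, lies in a stretch whose shared peaks had a median of 0.83. It follows a row of 14 successive peaks with a value in Med14S983A CON and a 0 in WT CON. The peak on chromosome 16 from 48506956 to 48508600, 1644 bp long, had 0.474 FPKM in WT CON and 30.7 in Med14S983A CON and is listed at 0 in WT FSK. All 8 leading gains had between 24.7 and 65.4 FPKM in Med14S983A CON and at most 1.58 in WT CON.

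The 8 leading losses mirror these sizes. On chromosome 12 from 48794957 to 48795821, the WT values were 62.0 (CON, interval 60.6 to 63.3), 58.1 (Ex-4) and 38.7 FPKM (FSK), against 0.646 (0.508 to 0.810), 0.732 and 0.526 in Med14 S983A. This site lies between rows of 17 and 14 successive peaks with a value in WT CON and a 0 in Med14S983A CON. It falls in a stretch of chromosome 12 whose shared peaks had a median difference of -0.34. On chromosome 17 from 23723701 to 23724537 the values were 77.3, 61.9 and 48.0 FPKM in WT and 1.18, 1.33 and 1.10 in the mutant. On chromosome 4 from 160789329 to 160790563 WT had 37.1, 36.8 and 29.4 FPKM, while the mutant had 0.205 FPKM in CON and was listed at 0 with Ex-4 and FSK. This site too lies between such rows, of 14 and 10 peaks. On chromosome 8 from 23756148 to 23757069, where WT values went from 30.2 FPKM in CON to 38.3 with Ex-4 and 52.9 with FSK, the mutant stayed between 0.420 and 0.494 FPKM. The 16 sites were chosen for the largest differences in CON, and the genotypes were also apart there with Ex-4 and FSK. Nearly all shared peaks with large differences repeated. Of the 661 at least 8-fold lower in CON, 100% were at least 2-fold lower under Ex-4 and 99.8% under FSK. Of the 179 at least 8-fold higher, 100% were at least 2-fold higher under each agonist.

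The 5 peaks with the highest mean level over both untreated libraries differed little. The highest, on chromosome 4 from 77447566 to 77448627, had 405 FPKM in WT CON (402 to 408) and 407 in Med14S983A CON (404 to 411), and the counting intervals overlap. The other 4 differed by between -0.34 and 0.36 on the log2 scale, and their counting intervals do not overlap between genotypes.

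**Figure D2:**
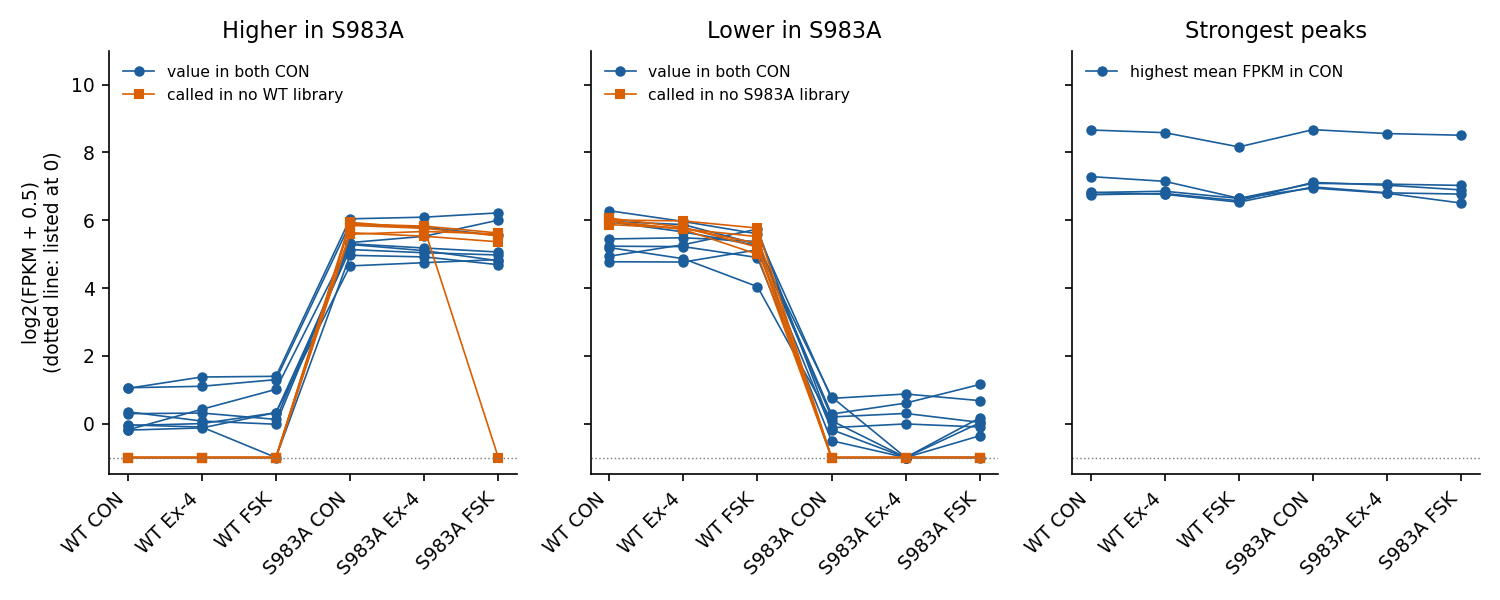
Lines join the log2(FPKM + 0.5) values of single peaks over the 6 libraries, with the dotted line at a listed 0, for the 8 leading gains and 5 mutant-only peaks (left), the 8 leading losses and 5 WT-only peaks (middle) and the 5 peaks of highest mean level (right). Gains and losses were chosen for their values in CON, and mutant-only and WT-only peaks also for their calls. These peaks stay apart by genotype in every treatment, with the exception of 1 mutant-only peak at 0 under FSK, while the strongest peaks differ by at most 0.36 in CON.

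Length separated the changed peaks. In 5 classes of equal size, the share of analysed peaks at least 2-fold higher in the mutant went down from 18.6% among peaks of 94 to 210 bp to 6.12% among those of 761 to 3550 bp. The lower share took another course, at 19.97% in the shortest class, between 24.9% and 25.6% in the next 3 and 12.0% in the longest. The shortest peaks were thus nearly balanced, with 5514 higher and 5908 lower, and from 343 to 760 bp losses outnumbered gains by more than 2 to 1. Most gains among short peaks were peaks with a 0 in WT CON. Of the shortest class, 18.0% had a value in Med14S983A CON alone and 19.2% in WT CON alone, while in the longest class these were 1.49% and 3.69%.

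Among shared peaks, where no 0 enters, lower peaks were concentrated at middle lengths. They made up 6.20% of the shortest class, 14.6%, 17.3% and 16.1% of the next 3 and 6.57% of the longest. Higher peaks ranged only from 3.66% to 5.81%. Shared peaks of 891 bp or more were slightly higher in the mutant, with a median of 0.14, while the 3 middle classes had medians between -0.07 and -0.05.

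Lower peaks were unevenly spread over levels. Level was taken as the mean of the 4 treated libraries, over both genotypes. The difference in CON does not use them, but it returned there, so a peak strong in 1 line alone gets a low mean level. The fall with level is therefore not independent of the difference. Peaks at least 8-fold lower in CON had medians of 17.6 FPKM in WT CON and 1.05 in Med14S983A CON. Lower peaks made up 18.8% of the weakest of 5 classes, 16.5%, 14.9% and 8.63% of the next and 1.90% of the strongest. Higher peaks made up 6.30%, 6.23%, 5.93%, 4.27% and 2.27%. The strongest class held 443 higher and 370 lower peaks and is the only one of the 5 in which gains were the more numerous. Its gains include peaks of the raised stretches described below. On chromosome 9, 294 peaks of this class in such a stretch had a median difference of 1.00. The counts by level were not taken apart by stretch. The median difference climbed with level from -0.15 to 0.14. Reads were also more concentrated in the mutant library as a whole. The 1% of peaks with the highest FPKM took 14.4% of the reads in peaks of Med14S983A CON and 12.4% of those of WT CON. The part of this in the trend with level was not tested. With classes by the mean of the untreated libraries themselves, lower peaks made up 16.9% of the weakest and 1.85% of the strongest class.

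Length and level together picked out a group of long peaks of low mean level. This level averages both genotypes in the treated libraries, where the difference returned, so a long peak strong in a single line can fall in the group. The 661 shared peaks with a difference of -3 or lower had a median length of 684 bp. Their medians were 17.6 FPKM in WT CON and 1.05 in Med14S983A CON. The shares by length and level are thus not independent of the difference. Shared peaks in the second longest length class (634 to 890 bp) and the weakest level class numbered 2264, and 34.3% of them were lower and 9.94% higher, with a median of -0.49. At the same length in the strongest level class, 2.99% of 5155 peaks were lower. The longest and strongest peaks, 9421 in number, had 0.478% lower and 2.09% higher and a median of 0.17. Of the 900 peaks in the longest and weakest class, 13.4% were higher and 30.2% lower. This was the highest share of gains in the 25 combinations.

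**Figure D3:**
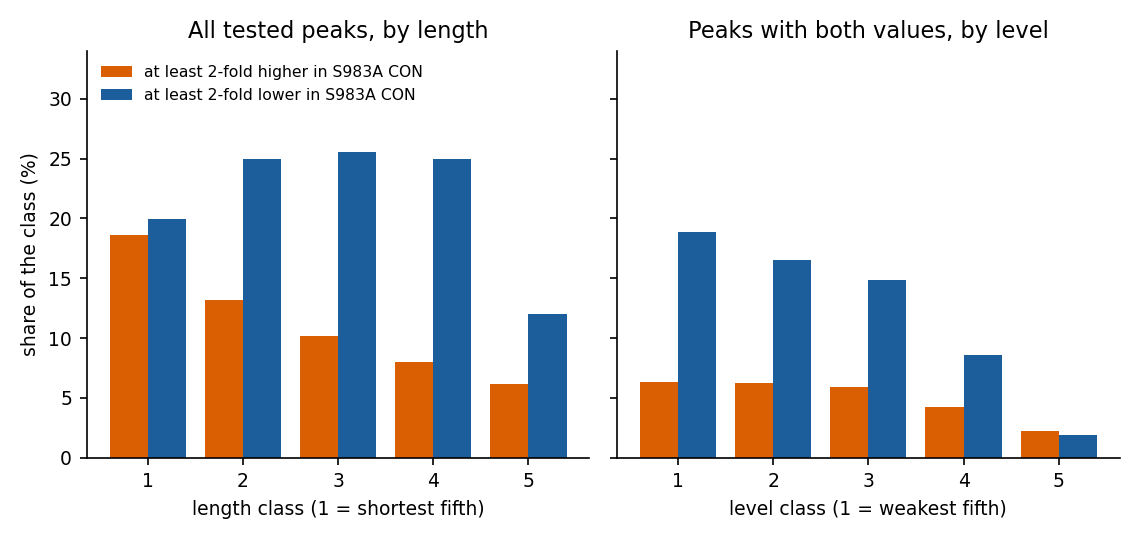
Bars give the share of peaks at least 2-fold higher or lower in Med14S983A CON, for all 146906 analysed peaks in 5 length classes (left) and for the 97388 shared peaks in 5 classes of their level in the treated libraries (right). Higher shares drop steadily with length from 18.6% to 6.12%, and lower shares drop with level from 18.8% to 1.90%.

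Neighbouring peaks differed together. For shared peaks less than 500 bp apart, the Pearson correlation of their differences was 0.50 over 6767 pairs of neighbours. It was 0.40 from 500 to 1000 bp, 0.28 from 2000 to 5000 bp, 0.17 from 20000 to 50000 bp and 0.21 at 100000 bp or more. These values run across pairs on the same DNA of the same 2 libraries, and peaks are not independent. Where a peak was at least 2-fold lower, its next neighbour within 500 bp was lower in 33.7% of 436 cases, among the 6767 pairs. Where a peak was higher, the next within 500 bp was higher in 31.7% of 397 cases. Over all shared peaks 12.1% were lower and 5.0% higher, a base that is not limited to peaks with so near a neighbour. In the 6767 near pairs the first peak was lower in 436 and higher in 397. For neighbours 100000 bp or more apart, the next was lower in 27.7% of 851 cases and higher in 10.7% of 252. After each peak was set relative to the median of its run of 200 neighbouring shared peaks, the correlation was 0.45 below 500 bp and 0.12 between 10000 and 20000 bp.

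Whole chromosomes differed modestly. The median difference of shared peaks was highest on chromosome 9 (0.27) and chromosome 5 (0.19) and lowest on chromosomes 12 and 17 (each -0.19). On chromosome 9, 17.0% of shared peaks were at least 2-fold higher and 9.90% lower, and on chromosome 5 these were 11.9% and 9.46%. Of the 21 chromosomes, only these had more higher than lower peaks. Chromosome X had the smallest share of lower peaks, 8.05%. Chromosome 15 had the largest share of analysed peaks with a value in WT CON only, 20.04%, and chromosome 9 the largest share with a value in Med14S983A CON only, 12.4%. Medians by chromosome in the treated pairs lay close to these, for example 0.26 and 0.22 on chromosome 9 with Ex-4 and FSK.

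Within chromosomes the differences were uneven. Of 487 runs of 200 neighbouring shared peaks, 19 had a median at least 1.5-fold away from that of all shared peaks in CON, 14 of them higher and 5 lower, and 16 did so again with Ex-4 and FSK. They lie on chromosomes 4, 5, 9, 15 and 17. The other runs had medians between -0.54 and 0.42. The shifted runs held 3900 of the shared peaks, with 22.0% of the higher and 4.31% of the lower ones.

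The 19478 shared peaks of the strongest level class were used to place such stretches, since their quartiles, -0.06 and 0.27 around a median of 0.14, were the closest of the 5 level classes. Medians of 10 successive strong peaks were divided along each chromosome into stretches of constant level, a step added after the values were seen. Of 37 stretches, 10 stood 0.32 or more (log2) above or below the strong-peak median, and the others between 0.09 below and 0.24 above it. The 10 stretches cover 187 Mb, and the differences that follow are medians of strong peaks.

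Gains of nearly 1 on the log2 scale covered the distal part of chromosome 9 and 2 parts of chromosome 5. On chromosome 9 from 71445382 to 122081899, 294 strong peaks had a median of 1.00 in CON (quartiles 0.82 and 1.14), 0.94 for Ex-4 and 0.97 for FSK. On chromosome 5 the median was 0.93 from 107948677 to 116413259 (30 strong peaks), 0.50 from 117026565 to 147442531 (410), 0.07 from 147444016 to 153844287 (90) and 0.98 from 154059700 to 173661315 (194). The successive levels on chromosome 5 repeated with Ex-4, at 0.82, 0.49 and 0.99 for the 3 raised stretches. A further stretch of 3.18 Mb on chromosome 11, up to its last strong peaks, from 87224172 to 90407417, had a median of 0.54 over 38 strong peaks, 0.51 for Ex-4 and 0.53 for FSK.

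Losses covered outer parts of chromosomes 4, 12, 15 and 17. On chromosome 4 from 161756223 to 181287188, 80 strong peaks had a median of -0.74, with -0.70 under Ex-4 and -0.67 under FSK, and the last 2.45 Mb, from 181434421 to 183879727, had -0.44. Chromosome 15 from 101130 to 9520375 had -0.51 over 50 strong peaks, chromosome 17 from 356686 to 15718666 had -0.42 over 230, and chromosome 12 from 24709180 to 52596419 had -0.30 over 442. The 27.9 Mb of chromosome 12 is the widest of the lowered stretches and has the smallest shift among them. Relative to the median of all strong peaks, the 10 stretches stood at between 0.544 and 1.82 times.

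**Figure D4:**
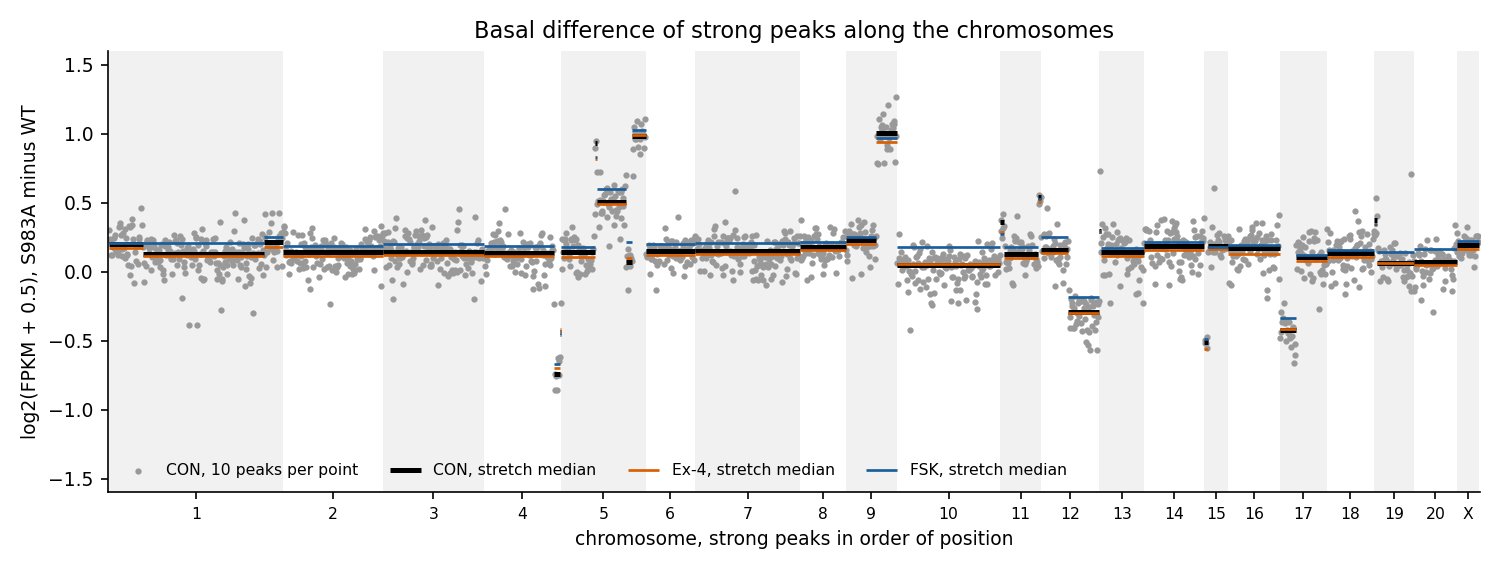
Grey points are medians over 10 successive strong peaks of the difference of Med14 S983A minus WT in CON, in order along chromosomes 1 to 20 and X, and lines are the medians of stretches in CON, Ex-4 and FSK. Most of the genome lies near 0.14, and the 10 shifted stretches stand out on chromosomes 4, 5, 9, 11, 12, 15 and 17 at nearly the same height in all 3 treatments.

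Weak and strong peaks shifted in the same direction inside these stretches, though not always by the same amount. On chromosome 9, peaks in the 5 level classes stood between 0.51 and 0.89 above peaks of the same class outside all shifted stretches. At the end of chromosome 5 the range was 0.70 to 0.90, and on chromosome 4 before 181287188 it was -1.06 to -0.88. In the stretch of chromosome 17 the range was wider, -0.78 to -0.33. The share of analysed peaks with a value in Med14S983A CON only was 14.7% in the raised stretches and 7.69% outside all shifted stretches, and the share with a value in WT CON only was 22.2% in the lowered stretches and 13.4% outside. DNA content was not measured, and the part of copy number in these shifts was not tested.

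Most of the shared peaks that differed lay outside these stretches. Stretches and runs were placed with shared peaks alone, so they do not register rows of peaks listed at 0 in 1 line. Such rows, described below, were not taken out of the counts that follow. The longest, on chromosome 15, lies in a stretch that was not called shifted. The raised stretches held 4.83% of the shared peaks and 24.7% of the higher ones, and the lowered stretches held 3.27% and 7.09% of the lower ones. Outside all 10, 3597 of 89498 shared peaks (4.02%) were higher and 10688 (11.9%) lower. After each shared peak was set relative to its run of 200 neighbours, 3756 were higher and 11836 lower. Of the 4870 peaks higher before, 70.7% still were, and of the 11829 lower, 91.9%. Of the 4166 peaks called in the mutant libraries alone, 10.9% lay in raised stretches, which hold 5.07% of analysed peaks. Of the 10275 WT-only peaks, 6.80% lay in lowered stretches, which hold 3.61%.

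Some losses of calls also came in unbroken rows. Among peaks called in either untreated library, with no filter on level, 32132 had a value in WT CON alone. Of these, 16059 stood singly, and 1297 made up 80 rows of 10 or more neighbours, covering 39.9 Mb. The 19896 with a value in Med14S983A CON alone formed 3 such rows, and 13286 of them stood singly. Of the 80 lost rows, 21 lie on chromosome 1, 13 on chromosome 4 and 7 each on chromosomes 9 and 12. In 24 of the 80, every merged peak in the row was listed at 0 in all 3 Med14 S983A libraries.

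The longest lies on chromosome 15 from 98573932 to 101939047, a span of 3.37 Mb. It holds 110 merged peaks, of which 92 have a value in WT CON, 91 in WT Ex-4 and 100 in WT FSK, and none has a value in any Med14 S983A library. Median levels over the 110 peaks were 3.53, 3.25 and 3.19 FPKM in the 3 WT libraries, and single peaks reached 23.5, 20.1 and 18.1 FPKM. Peaks on either side were present in both lines. Among the 40 merged peaks before it, 29 had a value in WT CON and 26 in Med14S983A CON, and among the 40 after it, 22 had a value in each. The 20 nearest shared peaks had a median difference of 0.31 before it and 0.22 after it. The row lies outside the lowered stretch at the start of chromosome 15.

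**Figure D5:**
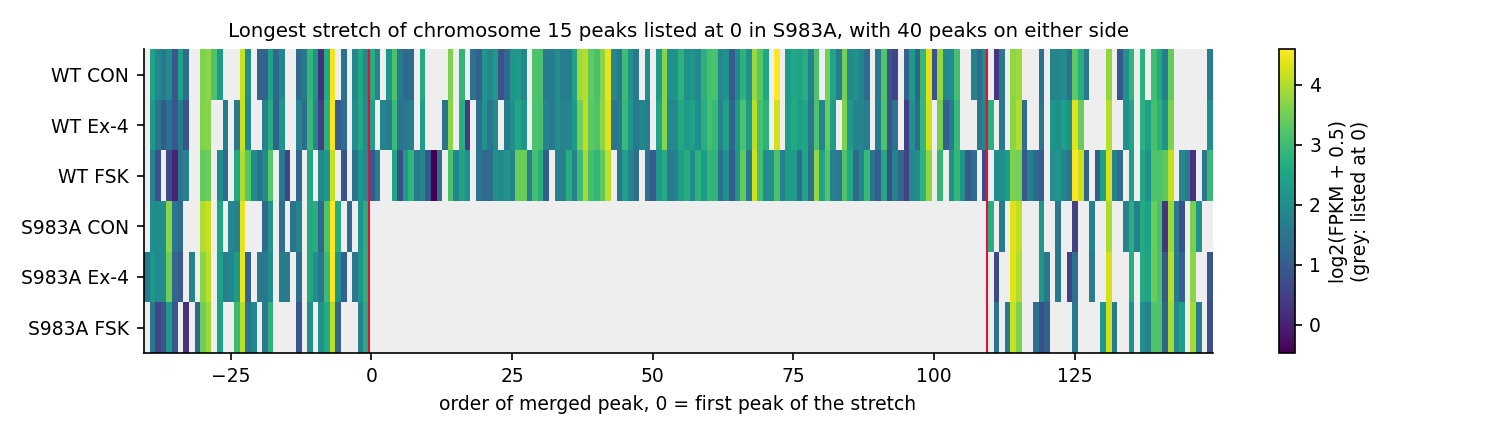
Columns are merged peaks in order along chromosome 15, with 40 on either side of the row of 110 that lies between the red lines, and colour gives log2(FPKM + 0.5) in each of the 6 libraries, with grey for peaks listed at 0. All 3 WT libraries carry the row, with values at 91 to 100 of the 110 peaks, and the 3 Med14 S983A libraries carry none of it while listing peaks on both sides.

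The next lost rows were less complete or lay in weaker surroundings. On chromosome 1 from 206014032 to 207570468, 45 successive peaks were listed in WT CON only, and of the 69 merged peaks there, 2 had a value in the Ex-4 library of the mutant and 5 in its FSK library. On chromosome 10 from 9256598 to 10188838 the row had 38 peaks, with values at 2 and 4 of 58 merged peaks in the treated mutant libraries. On chromosome 12 from 50546019 to 51202105 it had 37, and on chromosome 4 from 169197224 to 170284105 it had 31. Shared peaks around these rows were mostly lower too. The 20 on either side had medians of -0.64 and -0.48 on chromosome 1, -0.32 and 0.10 on chromosome 10, -1.09 and -1.29 on chromosome 12 and -1.41 and -0.65 on chromosome 4. The last 2 rows fall inside lowered stretches.

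Counted over all merged peaks, 6 more rows of over 30 peaks had no value in any Med14 S983A library, and they were described after their values were seen. Those on chromosome 12 from 50546019 to 51095242 (65 peaks) and from 49813057 to 50091224 (31 peaks) and on chromosome 4 from 177869551 to 178982021 (42 peaks) fall inside lowered stretches. The other 3 lie outside all shifted stretches, on chromosome 1 from 49074343 to 49756119 (36 peaks) and from 51176425 to 51889096 (32 peaks) and on chromosome 9 from 13826152 to 14355661 (31 peaks). Single peaks in these 3 rows reached 22.1, 11.5 and 32.4 FPKM in WT CON. The nearest peaks that had a value in all 6 libraries were mostly lower in the mutant. After the rows they had 29.2, 21.7 and 28.4 FPKM in WT CON and 1.96, 1.02 and 1.11 FPKM in Med14S983A CON. Before the rows they had 1.83, 3.10 and 29.3 FPKM in WT CON and 1.39, 0.737 and 2.67 FPKM in Med14S983A CON. Around the row on chromosome 15 the mutant had the higher value on both sides, 6.01 against 3.38 FPKM before and 19.7 against 12.8 FPKM after it.

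The rows gained in the mutant were short and weak. The longest, on chromosome 20 from 51509447 to 51587596, held 17 peaks with a value in Med14S983A CON and none in WT CON over 78.1 kb. Of its 29 merged peaks, 22 had a value in the Ex-4 library of the mutant and 21 in its FSK library, while WT Ex-4 had 1 and WT FSK none. The strongest of the peaks that no WT library listed reached 20.2 FPKM in Med14S983A CON. The second row, on chromosome 9 from 119208768 to 119249191, held 14 peaks and lies inside the raised stretch of that chromosome. The third, on chromosome 16 from 7365588 to 7428649, held 10, with values at 4 of its 13 merged peaks in WT FSK. Peaks of the gained rows had medians between 2.18 and 2.75 FPKM in Med14S983A CON.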

How the data were processed

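ATAC-seq was measured in 6 INS-1 libraries, 1 per condition, and the untreated library of each genotype was compared. Per the labels and the study's methods, reads were trimmed (Trim Galore) and mapped with bwa mem against rn6, samtools took out mitochondrial reads, duplicates and reads of low mapping quality, and macs2 gave 1 peak list per library. The authors deposited 1 merged peak table with HOMER FPKM per library and the lists that held each peak. They shifted fragments for a later footprint step, but whether the counted reads were shifted is not stated, a step which moves a cut by a few bases of peaks with a median length of 284 bp. FPKM times length, summed over the table, came to between 98.6% and 99.0% of the total that a scaling to reads in peaks gives. Groups were taken from the sample titles.

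Differences were computed as log2(FPKM + 0.5) from the deposited values, with the authors' scaling kept. The 3 mitochondrial peaks were left out, and peaks averaging under 1 FPKM over the libraries were dropped. Shared peaks are those above 0 in both untreated libraries. Reads were recovered as the largest step that divides FPKM times length, and all 2983 and 2146 low values checked in WT CON and Med14S983A CON lay within 0.15 of a whole step. Intervals are exact Poisson at 95% and take each step as 1 independent read. For neighbours, runs of 200 shared peaks were used. For strong peaks, medians of blocks of 10 were divided into stretches by least squares with a penalty for each stretch, a step added after the values were seen, and stretches at least 0.32 (log2) from the strong-peak median were called shifted. Of a gain or loss row, all members are successive among peaks called in either untreated library.

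Named peaks are the 8 largest differences in each direction among the 62205 shared peaks that averaged 5 FPKM or more in the untreated libraries, the 5 highest of each untreated library that no library of the other genotype called, the 5 of highest mean level, and the ends of shifted runs and stretches and of the longest rows. The members and lists were chosen with earlier results of these data known. The calculation was tested on artificial reads with planted differences. Alternatives were other pseudocounts, filters, fold rules, scalings, run sizes and peak sets. An rn6 annotation and sequence were not used here. Versions were matplotlib 3.10.9, scipy 1.17.1, pandas 2.3.3 and numpy 2.4.6 under Python 3.11.15.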

Additional observations from a re-analysis of the deposited data

Results flagged for a closer look

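Signal stood on the mitochondrial chromosome, which entered no comparison. Its 3 peaks took 1.08% of the reads in peaks of Med14S983A CON and 0.669% of those of WT CON.

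A few shared peaks turned direction between treatments, with 1 library each, so that these differences were not tested. Of the peaks at least 2-fold lower in the mutant in CON, 9 were at least 2-fold higher in the mutant with FSK and 6 with Ex-4. Of those at least 2-fold higher in CON, 10 were at least 2-fold lower with FSK and 4 with Ex-4. These pairs of treatments share no library, and all but 2 of the peaks are listed at 0 in some treated library. Both exceptions were named after their values were seen. The peak on chromosome 14 from 3279262 to 3279800 had 1.74 FPKM in WT CON, 7.96 in WT Ex-4 and 19.8 in WT FSK, against 4.82, 10.2 and 7.62 in the mutant. On chromosome 17, the 1 from 75357139 to 75357586 had 1.65, 6.39 and 4.94 FPKM in WT and 6.30, 6.23 and 1.84 in Med14 S983A.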

How the results depend on the processing

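No paired analysis was possible because the untreated difference rests on 1 library of each genotype, and for the same reason no replicate could be left out. Pairing genotypes within the 3 treatments would give an average over treatments, not the untreated difference. Lower peaks outnumbered higher ones in 13 of 13 alternatives over all analysed peaks and in 14 of 15 over shared peaks, the exception being quantile normalization over all analysed peaks, with 10628 higher and 7968 lower. A mean of at least 3 FPKM left 7319 higher and 14720 lower peaks of fewer analysed, and replacing each 0 by the 10th percentile of called values left 9064 and 20480. Shared peaks numbered 12068 higher and 20601 lower at 1.5-fold, and 791 and 2846 at 4-fold. The median over shared peaks, 0.03, was 0.051 over peaks called in all 6 libraries and -0.0014 after scaling to equal reads over shared peaks. Runs shifted in CON and again with Ex-4 and FSK numbered 38 of 974 with 100 peaks a run and 70 of 1948 with 50, against 16 of 487. The higher share of the shortest minus the longest class, 12.5 percentage points, was 16.1 with 10 length classes. The lower share of the weakest minus the strongest class, 16.9 with levels from treated libraries, was 15.1 with levels from the untreated libraries. Shifted stretches numbered 9 with blocks of 20, 8 with a smaller set of strong peaks and 12 with strong peaks called in all 6 libraries, against 10. Counts outside the shifted stretches and with their offsets removed, added after the values were seen, stayed within 1.5 times. The spread between cultures and between mutant clones sets the limit here, and neither was measured.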
